A study of Homo sapiens with 9 samples.

Results

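The nuclear lamina and the LINC complex (linker of nucleoskeleton and cytoskeleton) were followed through 9 genes out of 60664 counted. These 9 were chosen by name from textbook knowledge, with earlier results of these data known. They are the lamins *LMNA*, *LMNB1* and *LMNB2*, the SUN proteins *SUN1* and *SUN2*, the nesprins *SYNE1* and *SYNE2*, and the lamina partners *EMD* (emerin) and *LBR* (lamin B receptor). All 9 passed the filter on low counts that left 18264 genes for testing. The RNA came from MDA-MB-231, a breast cancer cell line of mesenchymal character, in 3 groups of 3 samples collected on day 6. Scramble control (SC) cells carried a stable non-targeting hairpin in the pLKO.1 vector and were kept at baseline viscosity (0.77 cP) or in medium brought to elevated viscosity (8 cP) with methylcellulose. The shTRPV4 cells carried a hairpin in the same vector against *TRPV4*, a calcium channel that opens upon mechanical and osmotic stimulation, and were kept at 8 cP only. Hence every group carried an integrated hairpin, and the effect of viscosity on shTRPV4 cells could not be measured. Whether the knockdown cells were a pool or a clone is not given in the sources used here, and although the paper describes its experiments in general as independent biological replicas, neither the labels nor the methods say of these samples whether the 3 of a group were separate cultures, so the spread between them may be technical.

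The lamina is a meshwork of A-type and B-type lamins under the inner nuclear membrane that gives the nucleus much of its stiffness and anchors silent chromatin. SUN proteins cross the inner membrane and hold the KASH domains of nesprins in the space between both membranes, and nesprins reach from the outer membrane to actin, microtubules and intermediate filaments, so that forces on the cytoskeleton arrive at the lamina. In many cell types the amount of A-type lamin goes with the stiffness of the tissue, whereas B-type lamins are made more evenly, and LINC complexes move and position the nucleus when cells squeeze through narrow spaces.

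Library totals lay between 64571681 and 103518036 counts. *TRPV4* itself was scarce, with 40, 28 and 54 counts in SC cells at 0.77 cP, 64, 45 and 24 in SC cells at 8 cP, and 7, 1 and 13 in shTRPV4 cells. Its log2 fold change between shTRPV4 and SC cells at 8 cP was −2.51 (SE 0.49; adjusted p = 0.00219, quasi-likelihood test of edgeR, Benjamini-Hochberg adjustment over all genes tested, as for every adjusted p given for genes). Levels in CPM are counts per 1e6 counts of the library, its total taken over genes past the filter and scaled by TMM. The mesenchymal markers *VIM*, *CD44*, *AXL*, *EGFR*, *MSN* and *CAV1* averaged at least 207.5 CPM in every group, whereas *ESR1*, *PGR* and *CDH1* averaged at most 0.0916 CPM in any group. The luminal keratin *KRT19*, however, averaged 749, 581 and 516 CPM in the 3 groups. The luminal genes *EPCAM* (19.0, 18.1 and 18.1 CPM) and *GATA3* (12.2, 12.8 and 15.8 CPM) were also present. Of the 3 luminal genes tested, *KRT19* fell between viscosities (−0.37, adjusted p = 0.00245), 33.3% beside 19.3% of all genes. *GATA3* rose in shTRPV4 against SC cells at 8 cP (0.30, adjusted p = 0.00265), again 33.3%, beside 20.0% of all genes. Fibroblast, leukocyte and endothelial lists summed to at most 47.3, 6.81 and 9.99 CPM in any sample, and the fibroblast gene *DCN* and the endothelial gene *CDH5* were at or near 0. Of their 10 tested genes 0 rose and 5 fell in SC cells at 8 cP (*COL1A2* −0.76, *COL1A1* −0.35, *PDGFRB* −0.51, *CD14* −0.46 and *PECAM1* −0.86), where 19.3% of all genes passed the test. In shTRPV4 against SC cells at 8 cP 1 of them rose (*LUM* 1.09) and 2 fell (*LYZ* −1.02 and *KDR* −0.89), where 20.0% of all genes passed. Of the 6 mesenchymal markers 1 rose (*AXL* 0.22) and 1 fell (*VIM* −0.17) between viscosities, 33.3% beside 19.3% of all genes. Between shTRPV4 and SC cells at 8 cP 1 rose (*MSN* 0.27) and 2 fell (*VIM* −0.28 and *AXL* −0.31), 50% beside 20.0% of all genes. *LMNA* also fell in that comparison. The part of these marker changes in the results for the lamina and LINC genes was not tested.

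On GRCh38, with exon counts of the canonical transcript in GENCODE release 44, the A-type lamin gene *LMNA* (ENSG00000160789) spans chr1:156082573-156140081 on the plus strand in 12 exons and gives lamins A and C by splicing, which gene counts do not tell apart. *LMNB1* (ENSG00000113368) lies at chr5:126776623-126837020 on the plus strand with 11 exons, and *LMNB2* (ENSG00000176619) at chr19:2427638-2456959 on the minus strand with 12. *SUN1* (ENSG00000164828) lies at chr7:816615-896435 on the plus strand with 19 exons, and *SUN2* (ENSG00000100242) at chr22:38733290-38794143 on the minus strand with 18. The giant nesprin genes *SYNE1* (ENSG00000131018; chr6:152121687-152637801, minus strand) and *SYNE2* (ENSG00000054654; chr14:63761899-64226433, plus strand) hold 146 and 116 exons, and their many short isoforms are summed in the counts. *EMD* (ENSG00000102119) lies at chrX:154379273-154381574 on the plus strand with 6 exons, and *LBR* (ENSG00000143815) at chr1:225401502-225428925 on the minus strand with 14. Some exon bases are shared with other genes, which leaves those reads uncertain: 1842 bases of *SUN1* with *GET4* on the same strand, 76 bases of *SUN2* with *DNAL4* on the same strand and 1974 with genes of the other strand, among them *GTPBP1*, 303 bases of *SYNE1* with *SYNE1-AS1*, and 46 bases of *LMNB2* with *MIR7108*.

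RefSeq start-site windows were found for 8 of the 9 members, *SUN1* being the one without. The windows of *LMNA* and *LBR* lay 7995 and 783 bases from the start of the canonical transcript and are not shown. The 250 bases before the start are shown for the B-type lamins, which rose together at 8 cP, and for *SUN2* and *SYNE1*, the LINC genes that fell in shTRPV4 cells, each read 5′ to 3′ on the gene's own strand (RefSeq, GRCh38.p14). They stand at chr5:126776886-126777135 (plus strand), chr19:2456960-2457209, chr22:38755999-38756248 and chr6:152637363-152637612 (minus strand for these last), and capitals mark the motifs found.
LMNB1: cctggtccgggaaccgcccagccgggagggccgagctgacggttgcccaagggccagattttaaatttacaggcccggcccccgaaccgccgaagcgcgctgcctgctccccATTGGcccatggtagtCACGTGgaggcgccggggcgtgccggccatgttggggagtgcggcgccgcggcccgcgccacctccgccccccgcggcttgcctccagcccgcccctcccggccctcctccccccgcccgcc
LMNB2: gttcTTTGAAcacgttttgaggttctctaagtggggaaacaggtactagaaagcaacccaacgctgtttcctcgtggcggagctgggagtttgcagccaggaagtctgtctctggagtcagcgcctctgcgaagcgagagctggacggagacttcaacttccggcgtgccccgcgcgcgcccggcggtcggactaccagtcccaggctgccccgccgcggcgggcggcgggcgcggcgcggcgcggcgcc
SUN2: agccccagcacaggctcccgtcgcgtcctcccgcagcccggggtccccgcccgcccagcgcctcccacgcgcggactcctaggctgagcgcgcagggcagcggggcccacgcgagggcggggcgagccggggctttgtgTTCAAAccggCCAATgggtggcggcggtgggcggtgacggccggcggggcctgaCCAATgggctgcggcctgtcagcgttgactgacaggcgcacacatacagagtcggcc
SYNE1: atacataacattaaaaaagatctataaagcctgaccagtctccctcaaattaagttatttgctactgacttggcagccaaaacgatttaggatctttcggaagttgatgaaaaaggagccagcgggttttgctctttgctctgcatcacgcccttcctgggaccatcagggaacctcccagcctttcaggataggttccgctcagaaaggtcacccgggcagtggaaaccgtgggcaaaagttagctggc

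The search took in both strands and 6 motifs: the cell cycle homology region TTTGAA, the CCAAT box CCAAT, the TEAD motif GGAATG, the E-box CACGTG, the AP-1 motif TGACTCA and the cyclic AMP response element TGACGTCA, none of which overlapped another in these sequences. The *LMNB1* window held a CCAAT box on the other strand and an E-box, the *LMNB2* window held TTTGAA near its far end, the *SUN2* window held TTTGAA on the other strand beside 2 CCAAT boxes, and the *SYNE1* window held none of the 6. Of 35116 RefSeq windows of 300 bases (250 before and 50 after the start), 15.2% held the cell cycle motif, 34.6% a CCAAT box, 14.0% the TEAD motif, 7.26% the E-box, 4.95% the AP-1 motif and 1.85% the cyclic AMP element. The printed bases of *LMNB1*, *LMNB2* and *SUN2* were rich in G and C, at 75.6%, 66.4% and 74.8%, whereas those of *SYNE1* stood at 47.6%. A match of letters is a description of the sequence and was not tested as a binding site.

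The lamins stood far above the nesprins at the RNA level. In fragments per kilobase of exon after scaling to library size (FPKM), with all exon bases of a gene as its length, *LMNA* averaged 180.2 ± 2.65 (SD, n = 3) in SC cells at 0.77 cP, *LMNB2* 119.6 ± 6.71 and *LMNB1* 42.5 ± 2.03. *EMD* followed at 35.0, *LBR* at 25.4, *SUN1* at 18.1 and *SUN2* at 14.0 FPKM, and *SYNE2* (1.45) and *SYNE1* (0.288) came last. The order was the same in all 3 groups, and neighbours in it did not overlap between samples. The middle of the order rests on the length chosen: with the length of the canonical transcript alone, *EMD*, *SUN1* and *LMNB1* averaged 54.4, 53.5 and 53.4 FPKM in SC cells at 0.77 cP and their samples overlapped. *LMNA* stayed first, at 461.5 FPKM on that scale, and the nesprins last. Both lengths of the nesprins are those of giant transcripts, with canonical lengths of 27708 bases for *SYNE1* and 21822 for *SYNE2*. Reads from their short isoforms would make these FPKM too low, so the place of the nesprins also rests on length.

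The first comparison asks what 6 days at elevated viscosity changed in SC cells. Both B-type lamins and *LBR*, the inner membrane protein that binds B-type lamins and heterochromatin, rose at 8 cP, by 15.8% to 21.0%, whereas the A-type lamin gene and the LINC genes did not pass the test. In bulk RNA such as this, a change in the number of cells with a transcript cannot be told apart from a change in its level per cell. Of the 9 members 3 rose and 0 fell, 33.3% of them, beside 19.3% of all genes tested, of which 9.57% rose and 9.69% fell. The samples of both groups did not overlap for 4 of the 9 (*LMNB1*, *LMNB2*, *LBR* and *SUN1*), beside 38.4% of all genes. The median log2 fold change of the members was −0.01, as it was over all genes (−0.01).

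*LMNB1* stood at 147, 154 and 162 CPM in SC cells at 0.77 cP and at 186, 181 and 193 CPM at 8 cP. All 3 samples at 8 cP lay above all 3 at baseline, and the log2 fold change was 0.27 (SE 0.05, adjusted p = 0.00142). *LMNB2* gave 629, 620.4 and 687 CPM at baseline and 725, 741 and 776 at 8 cP, again without overlap (log2 fold change 0.21, SE 0.05, adjusted p = 0.00999). Without SC-8cP replicate 3, the highest sample, this call was lost with an adjusted p of 0.0562. *LBR*, which also carries a sterol reductase domain, gave 135, 147 and 154 CPM at baseline and 172, 164 and 178 at 8 cP (log2 fold change 0.24, SE 0.05, adjusted p = 0.00713), with every sample at 8 cP above the baseline samples.

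*LMNA* gave 1490.2, 1462 and 1448 CPM at baseline and 1486, 1440.0 and 1378 CPM at 8 cP, so the groups overlapped. Its log2 fold change was −0.03 with a 95% interval from −0.13 to 0.06, or −8.31% to 4.35% (adjusted p = 0.657). *EMD*, the LEM-domain protein that binds lamins and the DNA-bridging protein BANF1, gave a log2 fold change of −0.01 (adjusted p = 0.914), with an interval from −7.49% to 6.63%. The SUN genes read slightly lower without passing the test: *SUN1* at −0.06 (adjusted p = 0.335), although its samples did not overlap, and *SUN2* at −0.08 (adjusted p = 0.253). Leaving out single samples moved them between −0.06 and −0.03 and between −0.11 and −0.04, the smallest sizes coming without SC-8cP replicate 3 for *SUN1* and without SC-0.77cP replicate 2 for *SUN2*. The nesprins were measured with less precision, and the 95% interval ran from −11.5% to 10.9% for *SYNE1* and from −17.6% to 7.60% for *SYNE2*.

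**Figure D1:**
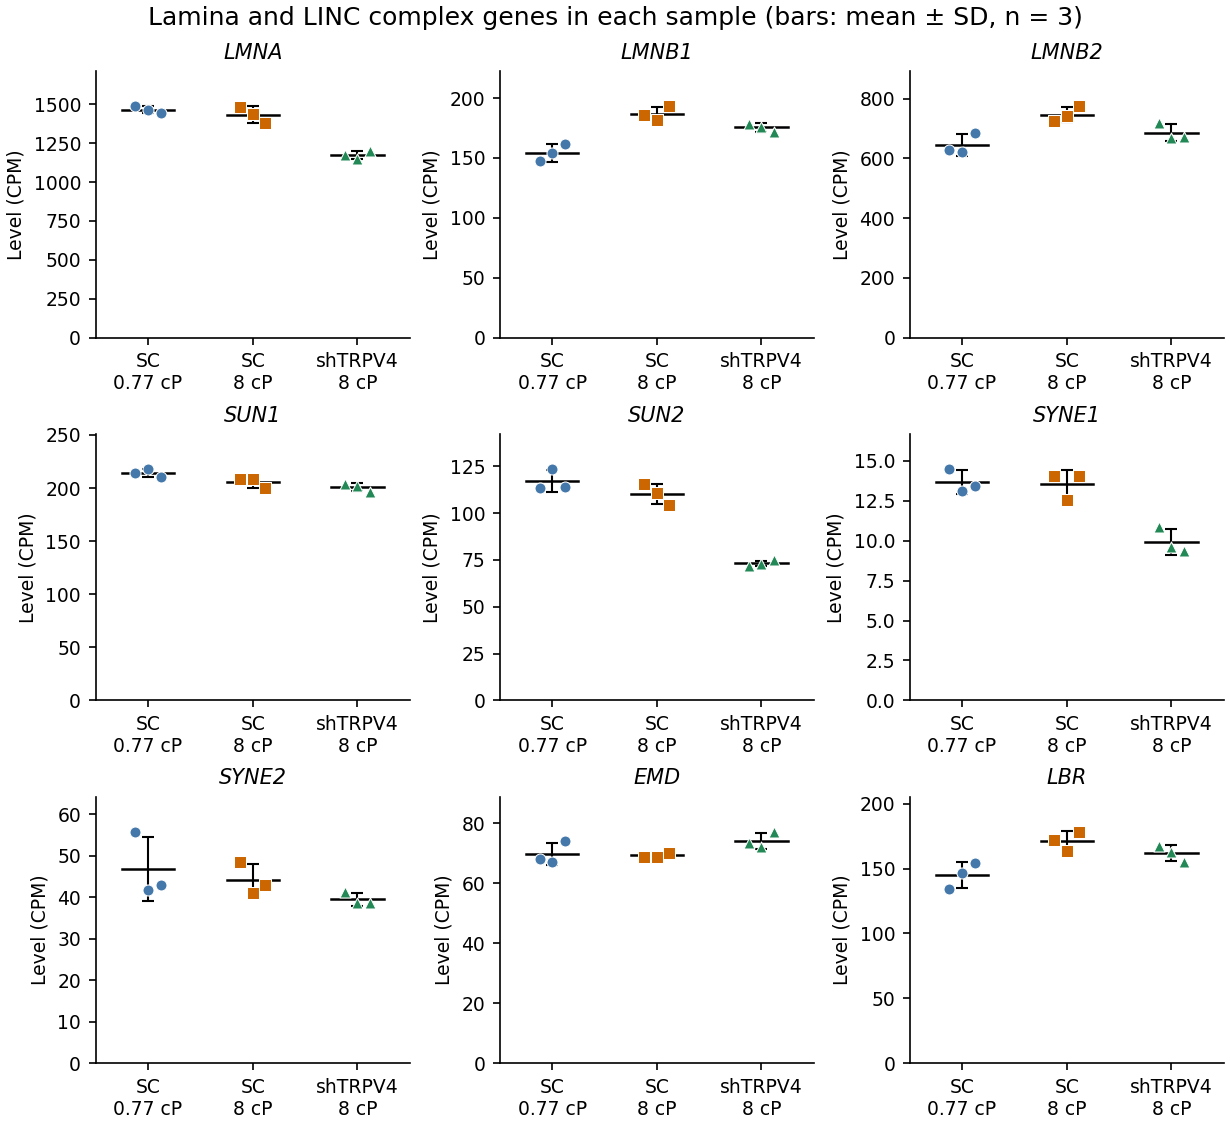
Level of each of the 9 genes in CPM (linear axis from 0) in each sample, by group, with the mean and SD of 3 samples. *LMNB1*, *LMNB2* and *LBR* lie higher at 8 cP than at 0.77 cP in SC cells, and *LMNA*, *SUN2* and *SYNE1* lie lower in shTRPV4 cells than in both other groups.

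The second comparison sets shTRPV4 cells against SC cells at the same 8 cP and asks what goes with the *TRPV4* hairpin. Here the other side of the set fell, namely the A-type lamin gene *LMNA*, *SUN2* and *SYNE1*, with changes of −18.1%, −33.7% and −26.6%, while no member rose. Of the 9 members 3 fell and 0 rose in edgeR's test, 33.3% of them, beside 20.0% of all genes (9.02% higher and 11.0% lower). DESeq2 called the same 3 and likewise none higher, and 4 members had an unadjusted p under 0.05, the fourth being *LMNB2*, which read lower. The samples did not overlap for 6 of the 9 (*LMNA*, *LMNB1*, *LMNB2*, *SUN2*, *SYNE1* and *EMD*), beside 36.3% of all genes. The median log2 fold change of the members was −0.12, whereas that of all genes was 0.00064.

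*LMNA* gave 1175, 1149 and 1199.8 CPM in shTRPV4 cells, below the lowest SC sample at 8 cP (1378 CPM). The log2 fold change was −0.29 (SE 0.04, adjusted p = 0.000293), and the 95% interval of the difference ran from −23.3% to −12.7%. In CPM this was the biggest difference of the 9 genes in this comparison.

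*SUN2*, one of the partner SUN proteins through which nesprins pull on the lamina, gave 115, 111 and 105 CPM in SC cells at 8 cP and 71.7, 73.0 and 74.8 CPM in shTRPV4 cells. The groups were well apart, with a log2 fold change of −0.59 (SE 0.05, adjusted p = 1.04e-06), the smallest p among the 9 members. *SYNE1*, which encodes nesprin-1, gave 14.1, 12.5 and 14.1 CPM in SC cells at 8 cP and 10.9, 9.61 and 9.36 CPM in shTRPV4 cells, likewise without overlap (log2 fold change −0.45, SE 0.08, adjusted p = 0.00088). These 3 calls held in all 16 alternative fits.

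The paralogs of these LINC genes did not pass the test. *SUN1* gave 209, 209 and 199.6 CPM in SC cells and 204, 202 and 197 CPM in shTRPV4 cells at 8 cP, which overlapped (log2 fold change −0.04, adjusted p = 0.597), and its 95% interval ran from −8.14% to 3.62%. *SYNE2*, which encodes nesprin-2, gave 48.5, 41.1 and 43.0 CPM against 41.4, 38.5 and 38.7 CPM, and its log2 fold change of −0.16 did not pass (adjusted p = 0.241). Without SC-8cP replicate 1, its highest SC sample at 8 cP, the log2 fold change of *SYNE2* was −0.09. The interval of *SYNE2*, from −21.8% to 2.24%, overlapped that of *SYNE1*, from −34.5% to −17.7%, and the difference between both nesprins was not tested.

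The genes that rose with viscosity read lower in shTRPV4 cells than in SC cells at 8 cP, but none passed the test. *LMNB1* stood at 179, 176 and 172 CPM in shTRPV4 cells, just below the lowest SC sample at 8 cP (181 CPM), with a log2 fold change of −0.09 (adjusted p = 0.189). *LMNB2* stood at 718, 668 and 673 CPM, also below all SC samples at 8 cP, with −0.12 (adjusted p = 0.105). *LBR* stood at 168, 163 and 155 CPM and overlapped with SC cells (−0.08, adjusted p = 0.313). *EMD* read higher, at 73.4, 72.1 and 77.2 CPM beside 68.9, 68.8 and 70.2 CPM, without overlap and without passing the test (0.10, adjusted p = 0.165).

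The third comparison sets shTRPV4 cells at elevated viscosity against the SC baseline, which differ in both hairpin and viscosity, so the contributions of hairpin and viscosity cannot be told apart in it. It shares its samples with the other comparisons, and its values are given beside theirs for that reason only. Of the 9 members 2 rose (*LMNB1* and *LBR*) and 4 fell (*LMNA*, *SUN2*, *SYNE1* and *SYNE2*), 66.7% in all, beside 42.4% of all genes (20.4% higher and 22.0% lower). The samples did not overlap for 7 of the 9, all but *LMNB2* and *EMD*, beside 50.6% of all genes. The median log2 fold change was −0.10 over the members and −0.01 over all genes.

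*SUN2* gave 113, 124 and 114 CPM in SC cells at 0.77 cP, all above the shTRPV4 samples, and a log2 fold change of −0.68 (SE 0.05, adjusted p = 8.17e-08), or −37.5%. *SYNE1* gave 14.5, 13.1 and 13.4 CPM at baseline and −0.46 (SE 0.08, adjusted p = 0.00022), and *LMNA* gave −0.32 (SE 0.04, adjusted p = 3.46e-05). *LMNB1* remained above baseline in all 3 shTRPV4 samples, with a log2 fold change of 0.18 (SE 0.05, adjusted p = 0.0044), beside 0.27 in SC cells at 8 cP.

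Other calls of the third comparison changed when single samples were left out. *LBR* stood 11.5% above baseline (log2 fold change 0.16, SE 0.05, adjusted p = 0.0276). That call was lost without SC-0.77cP replicate 1 (adjusted p = 0.13) or 2 (0.0517) and without shTRPV4-8cP replicate 1 (0.0802) or 2 (0.0748). *SYNE2* gave 55.8, 41.7 and 43.1 CPM at baseline, the first far above the other two, and a log2 fold change of −0.25 (SE 0.09, adjusted p = 0.0384). Without SC-0.77cP replicate 1 the log2 fold change of *SYNE2* was −0.10 (adjusted p = 0.309), and the call was also lost without shTRPV4-8cP replicate 2 (0.106) or 3 (0.0927). *SUN1* (−0.10, adjusted p = 0.0742), *LMNB2* (0.09, adjusted p = 0.174) and *EMD* (0.09, adjusted p = 0.15) did not pass. *LMNB2* and *EMD* did pass without SC-0.77cP replicate 3, in which both stood highest of the baseline samples, with adjusted p of 0.0295 and 0.0272.

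**Figure D2:**
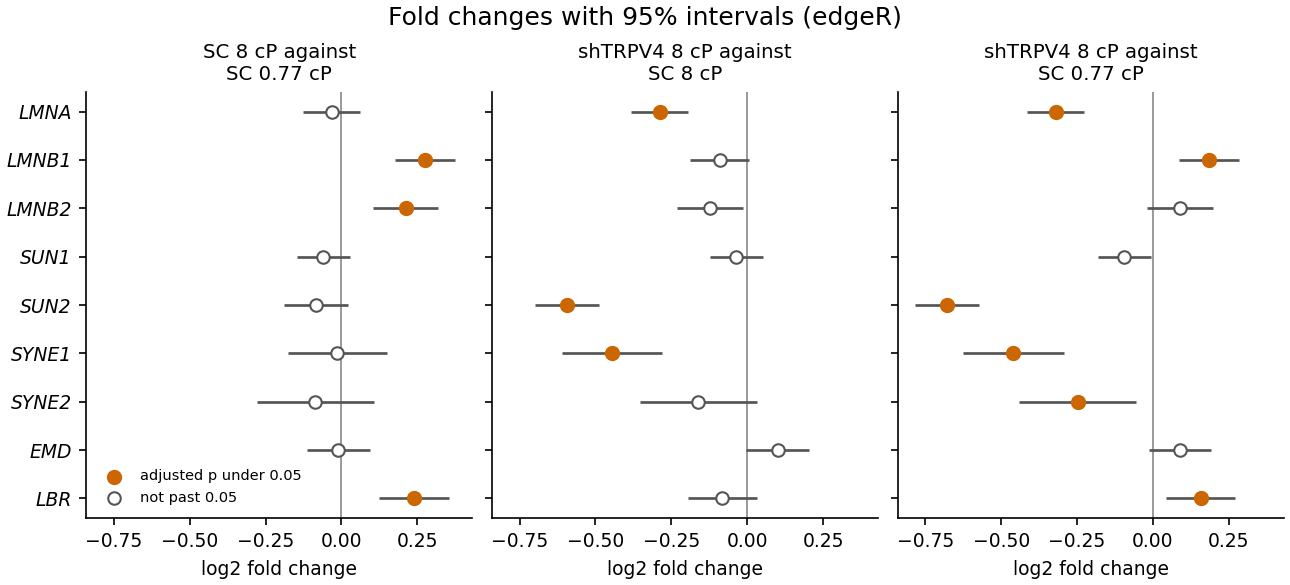
Log2 fold change of each of the 9 genes in the 3 comparisons (points) with its 95% interval (lines) from edgeR, filled where the adjusted p was under 0.05. The B-type lamins and *LBR* lie right of 0 in the comparison of viscosities, and *LMNA*, *SUN2* and *SYNE1* lie left of 0 in both comparisons of shTRPV4 cells.

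Ratios within a sample do not depend on how libraries are scaled, so the balance of A-type to B-type lamin RNA was taken as *LMNA* over the sum of *LMNB1* and *LMNB2*, each per kilobase of exon. It was 1.17, 1.14 and 1.03 in SC cells at 0.77 cP, 0.984, 0.944 and 0.859 in SC cells at 8 cP, and 0.791, 0.819 and 0.857 in shTRPV4 cells. The 3 groups did not overlap, although the highest shTRPV4 sample and the lowest SC sample at 8 cP all but met. The mean log2 ratio differed by −0.26 between viscosities, by −0.17 between shTRPV4 and SC cells at 8 cP, and by −0.44 between shTRPV4 cells and baseline. Each difference had an exact two-sided permutation p of 0.1, which is the smallest that 3 samples against 3 allow. As shares of lamin RNA, *LMNA* made up 52.7% ± 1.58 (SD, n = 3), 48.1% ± 1.74 and 45.1% ± 0.987 in the 3 groups, *LMNB1* 12.4%, 14.0% and 15.1%, and *LMNB2* 34.9%, 37.8% and 39.8%. The *LMNB2* share overlapped between SC cells at 8 cP (36.5% to 39.26%) and shTRPV4 cells (39.08% to 40.8%). Whether A-type or B-type RNA is the larger depends on the length used: by canonical transcripts the ratio averaged 2.40, 2.001 and 1.77, in the same order of groups.

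Of the genes in this ratio, *LMNB1* and *LMNB2* passed the test between viscosities, and *LMNA* passed it between shTRPV4 and SC cells at 8 cP. The ratio of *SUN1* to *SUN2* per kilobase of exon averaged 1.29 ± 0.0462 (SD, n = 3) in SC cells at baseline, 1.32 ± 0.0365 at elevated viscosity and 1.94 ± 0.0744 in shTRPV4 cells. All 3 shTRPV4 samples lay above all SC samples (exact two-sided permutation p = 0.1 against either group, the smallest possible), whereas both SC groups overlapped (exact p = 0.6). *SYNE2* per *SYNE1* averaged 5.01, 4.79 and 5.85 in the 3 groups, higher in all shTRPV4 samples than in SC cells at 8 cP (exact permutation p = 0.1) but overlapping with baseline (exact p = 0.2). Over these 3 ratios and 3 comparisons, 9 tests in all, the Benjamini-Hochberg adjusted values were at least 0.15.

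**Figure D3:**
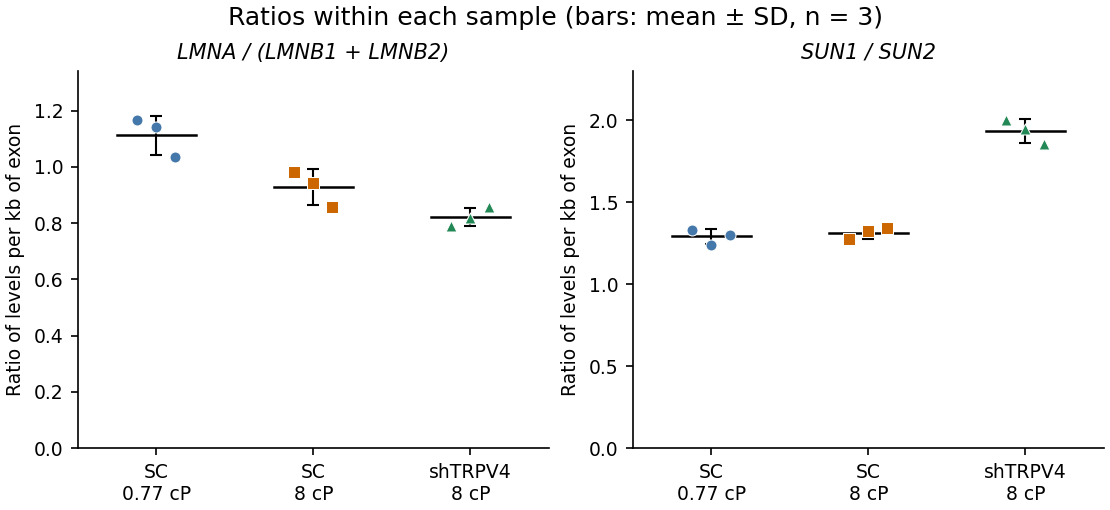
Ratio of A-type to B-type lamin RNA and of *SUN1* to *SUN2* RNA in each sample (levels per kilobase of exon, linear axes from 0), with the mean and SD of 3 samples per group. The lamin ratio steps down over the 3 groups, and the SUN ratio is near 1.3 in both SC groups and near 1.9 in shTRPV4 cells.

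Other genes of the nuclear envelope were read from lists written with general knowledge of their roles and with earlier results of these data known. Among 17 lamina partners, 5 rose and 1 fell at 8 cP in SC cells, 35.3% beside 19.3% of all genes, with a median log2 fold change of 0.08. Those that rose were *NDC1*, which anchors nuclear pores in the membrane (0.35, adjusted p = 0.00182), *TMPO*, which encodes the lamina-associated LAP2 proteins (0.21, adjusted p = 0.00377), the inner membrane proteins *TMEM201* (0.38, adjusted p = 0.0279) and *NEMP1* (0.24, adjusted p = 0.0302), and *TOR1A*, an ATPase of the envelope lumen (0.13, adjusted p = 0.0463). *LEMD2*, a LEM-domain relative of emerin, fell in SC cells at 8 cP (−0.14, adjusted p = 0.0383) and further in shTRPV4 cells (−0.14 against SC cells at 8 cP, adjusted p = 0.0363). *TOR1B* fell as well in shTRPV4 cells against SC cells at 8 cP (−0.16, adjusted p = 0.0234), making 0 higher and 2 lower of 17 (median −0.02). This share of 11.8% lay below the 20.0% of all genes. Against baseline, 7 of the 17 rose and 3 fell (*LEMD2* −0.27, *TMEM43* −0.15 and *LEMD3* −0.13), 58.8% beside 42.4% of all genes, with a median of 0.07.

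These counts of lamina partners changed when single samples were left out, as did the calls over all genes. Without SC-0.77cP replicate 1, 671 genes rose and 738 fell between viscosities, beside 1748 and 1770 with all samples. The 6 calls of the comparison of viscosities dropped to 2 without SC-0.77cP replicate 1 or 2 or SC-8cP replicate 1 or 3, and the 2 calls of shTRPV4 against SC cells at 8 cP dropped to 0 or 1 without SC-0.77cP replicate 2, any SC-8cP sample, or shTRPV4-8cP replicate 1 or 2, and to 1 with no filter on low counts. The 10 calls against baseline dropped to 6 without SC-0.77cP replicate 1 or 2.

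Of 15 further LINC genes and their cytoskeletal partners 12 were tested, while *SUN5*, *KASH5* and *IRAG2* were at or near 0 counts. In SC cells at 8 cP 1 rose, the kinesin heavy chain *KIF5B* (0.26, adjusted p = 0.00403), and 1 fell, *SPAG4*, a SUN-domain gene (−0.66, adjusted p = 0.00114), with a list median of 0.01. These were 16.7% of those tested, near the 19.3% of all genes. In shTRPV4 cells against SC cells at 8 cP 1 rose and 3 fell (median −0.01), 33.3% beside 20.0% of all genes. *SPAG4* fell again (−0.55, adjusted p = 0.00255), as did *SYNE3*, encoding nesprin-3, which ties the nucleus to intermediate filaments through plectin (−0.38, adjusted p = 0.000774), and *NDE1*, a dynein regulator (−0.20, adjusted p = 0.0254). *SUN3*, a SUN-domain gene known from testis, rose (1.57, adjusted p = 4.72e-06) but from a low level, averaging 0.962 CPM in SC cells and 2.86 CPM in shTRPV4 cells. Against baseline 3 rose (*SUN3* 1.44, *KIF5B* 0.22 and *BICD2* 0.15) and 3 fell (*SPAG4* −1.21, *SYNE3* −0.39 and *NDE1* −0.31), 50% beside 42.4% of all genes, with a median of 0.02. Of the SUN and nesprin genes in both lists, *SUN2*, *SPAG4*, *SYNE1* and *SYNE3* were lower in shTRPV4 cells than in SC cells at 8 cP. *SUN3* was higher, and the others tested, among them *SUN1* and *SYNE2*, did not pass.

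Prelamin A and the B-type lamins are farnesylated and then trimmed and methylated. Of 5 genes of this processing, *ICMT*, the methyltransferase (0.42, adjusted p = 0.00212), and *ZMPSTE24*, the protease of prelamin A (0.30, adjusted p = 0.0037), rose in SC cells at 8 cP, and *FNTA*, a farnesyltransferase subunit, fell (−0.17, adjusted p = 0.0274), with a median of −0.03. These were 60% of the list, beside 19.3% of all genes. In shTRPV4 against SC cells at 8 cP 0 of the 5 passed edgeR's test, beside 20.0% of all genes, and DESeq2 called 0. Only *ICMT* had an unadjusted p under 0.05 (log2 fold change −0.17), 1 gene of the 5, and the list median was −0.05. Without shTRPV4-8cP replicate 1, or with no filter on low counts, 1 of the 5 passed. Against baseline 2 rose (*ICMT* 0.25 and *ZMPSTE24* 0.25) and 2 fell (*FNTB* −0.24 and *FNTA* −0.18), 80% beside 42.4% of all genes, with a median of 0.07. These 4 calls dropped to 1 without SC-0.77cP replicate 2 and to 2 without shTRPV4-8cP replicate 1.

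Of 31 nuclear pore genes 15 rose and 0 fell in SC cells at 8 cP, with a median log2 fold change of 0.16, so that 48.4% passed the test beside 19.3% of all genes. The smallest p belonged to *NUP155* (0.35, adjusted p = 0.00185), *SEH1L* (0.25, adjusted p = 0.00543), *NUP133* (0.21, adjusted p = 0.00974) and *NUP43* (0.29, adjusted p = 0.0106), all of them scaffold subunits. Between shTRPV4 and SC cells at 8 cP 9 rose and 1 fell (median 0.12), led by the membrane nucleoporin *NUP210* (0.58, adjusted p = 1.06e-05), *AHCTF1* (0.31, adjusted p = 0.00168), *NUP153*, a basket protein that binds lamins (0.27, adjusted p = 0.00224), and *NUP35* (0.28, adjusted p = 0.00505). The gene that fell was *NUP54* (−0.17, adjusted p = 0.0327). In this comparison 32.3% of the list passed, beside 20.0% of all genes. Against baseline 25 rose and 0 fell, 80.6% beside 42.4% of all genes, with a median of 0.31, led by *NUP155* (0.59), *AHCTF1* (0.49), *NUP205* (0.48) and *NUP35* (0.47). The 15 calls of the first comparison dropped to 5 without SC-0.77cP replicate 1 or 2 and to 3 without SC-8cP replicate 3, and the 10 of the second to 5 without SC-8cP replicate 2 or shTRPV4-8cP replicate 1. Calls over all genes dropped too, in the first comparison to 687 higher and 731 lower without SC-8cP replicate 3, from 1748 and 1770.

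Of 15 genes that take the envelope apart in mitosis or reseal it, 3 rose and 0 fell in SC cells at 8 cP (median 0.04), a share of 20.0% that lies near the 19.3% of all genes. They were *SPAST* (0.27, adjusted p = 0.0142), *CCNB1* (0.19, adjusted p = 0.0153) and *VRK1* (0.19, adjusted p = 0.0209). These 3 calls became 0 without SC-0.77cP replicate 1 or SC-8cP replicate 3, and 5 without SC-0.77cP replicate 3. In shTRPV4 against SC cells at 8 cP 0 of 15 passed edgeR's test, beside 20.0% of all genes, and 0 passed in DESeq2, with 2 at an unadjusted p under 0.05 (*CHMP4B* and *CHMP3*, log2 fold changes 0.10 and −0.10), and the median was 0.04. Against baseline 4 rose (*SPAST* 0.33, *VRK1* 0.28, *PLK1* 0.21 and *CCNB1* 0.18) and 2 fell (*CHMP2A* −0.20 and *CDK1* −0.16), with a median of 0.06. This share of 40% lay near the 42.4% of all genes.

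Genes of dividing cells also rose with viscosity in SC cells. *LMNB1* and *LBR* are themselves known to be more abundant in cycling than in arrested cells. Of 16 proliferation genes 12 rose and 0 fell in SC cells at 8 cP, 75% beside 19.3% of all genes, with a median log2 fold change of 0.23. Those with the smallest p were *CCNA2* (0.31, adjusted p = 0.000759), *MCM6* (0.31, adjusted p = 0.000841), *PCNA* (0.27, adjusted p = 0.0019) and *TOP2A* (0.33, adjusted p = 0.00276). The other 4 did not pass, among them *MKI67*, the gene of Ki-67 (0.23, adjusted p = 0.0699). In separate assays of its own, the paper reports no change of cell proliferation at elevated viscosity. The summed level of the list was 3613 to 4028 CPM in SC cells at 0.77 cP, 4354 to 4684 CPM in SC cells at 8 cP and 4261 to 4653 CPM in shTRPV4 cells. In shTRPV4 against SC cells at 8 cP only *MCM7* passed (0.17, adjusted p = 0.0418), 1 higher and 0 lower of 16 with a median of −0.05. Its share of the list, 6.25%, lay below the 20.0% of all genes. That single call was absent without SC-8cP replicate 1 or 2 or any one of the shTRPV4 samples, and 2 passed with DESeq2, with upper quartile scaling, with the 6 compared samples alone or without SC-0.77cP replicate 3. Against baseline 13 rose and 0 fell, 81.2% beside 42.4% of all genes, with a median of 0.21, led by *TYMS* (0.29), *MCM7* (0.33), *MCM4* (0.38) and *BUB1* (0.29). The part of dividing cells in the changes of *LMNB1*, *LMNB2*, *LBR* and the pore genes was not tested.

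**Figure D4:**
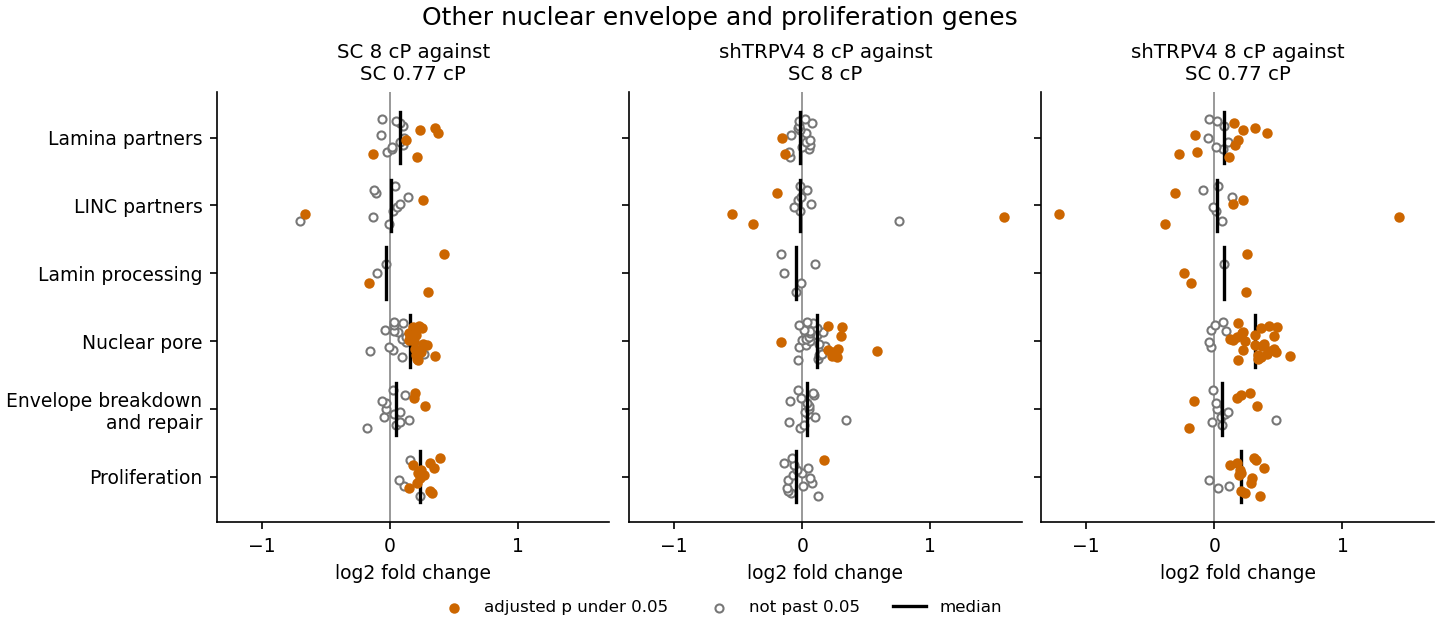
Log2 fold change of each tested gene (points, filled where edgeR's adjusted p was under 0.05) in 6 lists and 3 comparisons, with the median of each list as a bar. The medians of the nuclear pore and proliferation lists lie right of 0 between viscosities in SC cells (0.16 and 0.23), and in shTRPV4 against SC cells at 8 cP the medians are 0.12 and −0.05.

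The genes whose log2 CPM ran most like that of a member over the 9 samples were named by Pearson's r as a description, since groups of samples drive these values and the samples share their libraries. For *LMNA* they were *DSC2* (0.993), which encodes a desmosomal cadherin, and *CDK19* (0.993). *SUN2* ran with *UBALD2* and *CTNNBIP1*, an inhibitor of beta-catenin (both 0.995), and *SYNE1* with *BMPR2*, a receptor for bone morphogenetic proteins (0.986), and *COL17A1* (0.979). *USP13*, a deubiquitinase, came first for both *LMNB1* (0.980) and *LBR* (0.984), followed by *ACTR2*, an ARP2/3 subunit, for *LMNB1* (0.978) and *PRKAR2A* for *LBR* (0.983). *LMNB2* ran with *CAMK4* (0.975) and *CLCN5* (0.974), and *SYNE2*, less closely, with *NFE4* (0.953) and *PACS2* (0.932).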

How the data were processed

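The sample titles gave the group and replicate number of the 9 MDA-MB-231 samples. Per the paper's methods and the submitters' processing notes, libraries were stranded and poly(A)-selected, with paired reads of 100 bp. The authors aligned them with HISAT2 2.2.1 (GRCh38.p13) and deposited raw counts of exon reads per gene (Ensembl release 104, HTSeq 0.13.5). The strand option of the counting is not given in the sources used here. A symbol was found for 60463 of the 60664 genes.

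Counts were scaled by TMM, filtered with filterByExpr and tested with edgeR 4.0.16 (R 4.3.3, limma 3.58.1), using 1 coefficient per group over all 9 samples. Benjamini-Hochberg adjustment ran over 18264 genes, with a threshold of 0.05, and the common biological coefficient of variation was 0.0633. DESeq2 1.42.0 was an alternative. Ratios were compared by exact two-sided permutation of 3 samples against 3. Lengths and positions came from GENCODE release 44 and start-site windows from RefSeq. CPM and FPKM were computed here from the deposited counts. Libraries hold no molecular identifiers, so depth covers the error of counting only, and precision was set by the spread between samples. The test was tested on simulated data. Alternatives were RLE and upper quartile scaling, DESeq2, other filters, the 6 compared samples alone, a replicate block and leaving out each sample.

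The members and lists were chosen with earlier results of these data known. Genes named are the 9 members, *TRPV4*, in each list the 4 with the smallest p in the comparison discussed, all members called where 5 or fewer were (read for each direction), untested ones where 5 or fewer were, and the 2 genes most correlated with each member called at least once. *ICMT*, *CHMP4B* and *CHMP3* (unadjusted p in the second comparison), *MKI67*, *EPCAM* and the marker genes that passed were named after their values were seen.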

Additional observations from a re-analysis of the deposited data

How the results depend on the processing

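Under 7 other settings (RLE scaling, upper quartile scaling, DESeq2, both other filters, the 6 compared samples alone and the replicate block), members called stayed at 3 and 3 in the first 2 comparisons and at 6 in the third, except for 7 with upper quartile scaling (*SUN1*, adjusted p = 0.0384). Leaving out samples gave 2 to 3, 3 to 4 and 4 to 8 members. The log2 lamin ratio ranged over left-out samples from −0.31 to −0.21, from −0.23 to −0.13 and from −0.49 to −0.40. With canonical transcript lengths, an alternative chosen after seeing the data, it was −0.26, −0.18 and −0.44. Of the members' log2 fold changes, 413 kept direction and side of the threshold, 8 lost the call, 4 gained it and 7 reversed, all 7 between viscosities in SC cells and none called. Each of the 7 came from leaving out 1 sample. Over left-out samples, *LMNA* ranged from −0.050 to 0.0044 (positive without SC-8cP replicate 3), *SYNE1* from −0.034 to 0.050 (positive without SC-0.77cP replicate 1 or SC-8cP replicate 2), *SYNE2* from −0.15 to 0.066 (positive without SC-0.77cP replicate 1) and *EMD* from −0.030 to 0.046 (positive without SC-0.77cP replicate 3 or SC-8cP replicate 1 or 2). Where 1 sample is left out of a group, fewer samples set the estimate; other causes were not tested.

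Samples of different groups with the same replicate number correlated between −0.0546 and 0.0904 in their deviations from the group means, under 0.1 in all 9 pairs, and in 7 of 18 checks a sample correlated best with its own number, so the numbers were not treated as pairing the samples. With the replicate block, 3, 3 and 6 members were called, and the ratio differences were −0.26, −0.17 and −0.44, each with an exact p of 0.25, the smallest that 3 pairs allow. The *TRPV4* count of 1 to 64 a sample limits how well the knockdown itself was measured, whereas each member had at least 752 counts in every sample.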
